A study of Mus musculus with 10 samples.

Results

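The final steps of sugar digestion and the uptake of hexoses in the small intestine were followed through 9 genes. They were taken by name from the 54838 genes listed for each library. They comprised the disaccharidases Sis, Mgam, Lct and Treh and the sodium-coupled transporter Slc5a1 with its relative Slc5a4a. The facilitative transporters were Slc2a2, Slc2a5 and Slc2a7. All 9 passed the filter on low counts. RNA was sequenced from crypts of the mouse jejunum, 1 library per animal, in 5 WT and 5 Arid3a cKO mice, and the comparison asks how these genes stood after Arid3a, an A+T rich interaction domain transcription factor, had been deleted in the epithelium. The cKO mice carried floxed alleles of Arid3a and CreERT2 driven by the Villin promoter. Mice of both genotypes had been given tamoxifen on 3 consecutive days and were culled 1 month after the first injection. The Villin promoter drives Cre in intestinal epithelial cells, so Arid3a of stromal and immune cells was not targeted. The labels give neither age nor sex, and their animal numbers fall into separate series for the genotypes, so that colony or litter cannot be told apart from genotype.

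Starch and sucrose reach the jejunum as short sugars, which the brush border enzymes of enterocytes split into single hexoses. Sucrase-isomaltase (Sis) and maltase-glucoamylase (Mgam) act on sucrose and the breakdown products of starch, lactase (Lct) on milk sugar and trehalase (Treh) on trehalose. Glucose and galactose then enter the cell with sodium through SGLT1 (Slc5a1), fructose enters through GLUT5 (Slc2a5), and hexoses leave on the basolateral side through GLUT2 (Slc2a2). Slc5a4a is a relative of SGLT1, and Slc2a7 encodes GLUT7, a relative of GLUT5. These genes are used as markers of mature absorptive cells, which lie mainly on the villus, while crypts hold stem cells, dividing progenitors, Paneth cells and the early members of each lineage.

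Factors of the HNF1, HNF4, CDX and GATA families are known to act at promoters of such genes, so the 250 bases before the RefSeq start were read for all 9 genes (GRCm38.p6). Those of Sis, Mgam, Lct, Slc5a1 and Slc2a2 are printed here, for the enzymes of sucrose, starch and milk sugar and for the transporters that carry glucose in and out. They lie at chr3:72967864-72968113 (Sis, minus strand), chr6:40628581-40628830 (Mgam, plus strand), chr1:128328319-128328568 (Lct, minus strand), chr5:33103969-33104218 (Slc5a1, plus strand) and chr3:28697653-28697902 (Slc2a2, plus strand). Each is written 5′ to 3′ along the gene and ends at the base before its start. Capitals mark, on either strand, the HNF1 motif GTTAAT, the HNF4 motif CAAAGTC, the CDX motifs TTTAT and TTTAC, and the GATA motif AGATAA.
Sis: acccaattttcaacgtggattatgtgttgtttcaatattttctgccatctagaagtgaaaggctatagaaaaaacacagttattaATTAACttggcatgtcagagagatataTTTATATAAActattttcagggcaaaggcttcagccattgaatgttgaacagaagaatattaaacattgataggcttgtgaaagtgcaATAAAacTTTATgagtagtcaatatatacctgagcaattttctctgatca
Mgam: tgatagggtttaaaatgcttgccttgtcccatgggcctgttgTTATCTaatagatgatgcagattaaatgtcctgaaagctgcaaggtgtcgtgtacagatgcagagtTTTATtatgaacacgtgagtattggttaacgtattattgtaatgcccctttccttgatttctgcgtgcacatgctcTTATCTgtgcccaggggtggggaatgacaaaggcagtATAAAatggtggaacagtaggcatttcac
Lct: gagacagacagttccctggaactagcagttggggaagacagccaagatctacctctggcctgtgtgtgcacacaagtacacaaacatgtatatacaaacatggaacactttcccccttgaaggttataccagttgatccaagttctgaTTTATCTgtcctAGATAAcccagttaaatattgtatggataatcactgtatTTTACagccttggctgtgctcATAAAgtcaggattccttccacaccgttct
Slc5a1: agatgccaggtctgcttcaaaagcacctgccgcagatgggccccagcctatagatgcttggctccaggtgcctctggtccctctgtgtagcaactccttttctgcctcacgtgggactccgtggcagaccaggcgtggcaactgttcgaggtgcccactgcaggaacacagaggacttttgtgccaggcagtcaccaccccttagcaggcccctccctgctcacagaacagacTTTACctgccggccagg
Slc2a2: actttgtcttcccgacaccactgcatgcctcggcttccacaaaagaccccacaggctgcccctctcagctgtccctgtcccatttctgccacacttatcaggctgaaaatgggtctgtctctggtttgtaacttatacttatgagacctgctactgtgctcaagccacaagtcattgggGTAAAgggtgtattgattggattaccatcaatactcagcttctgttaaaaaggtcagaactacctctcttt

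Of the HNF1, HNF4, CDX and GATA motifs, those of CDX, which are the shortest, were the most frequent in these windows and also among all mouse promoters. TTTAT was present in 4 of the 9 promoters (Lct, Sis, Mgam and Slc5a4a) against 37.3% of 32851 mouse promoters of the same length, and TTTAC in 3 (Lct, Slc2a2 and Slc5a1) against 28.3%. AGATAA stood in Lct and Mgam (9.99% of all promoters), GTTAAT in Sis alone (6.43%) and CAAAGTC in Treh alone (3.84%). In Lct, TTTAT began at position -102 from the start, where it overlapped an AGATAA on the opposite strand, and the second AGATAA began at position -90. The letters of the TATA box (TATAAA), whose reverse complement contains TTTAT, were found in Sis, Mgam and Slc5a4a (12.4% of all promoters). In Mgam they began at position -30 on the strand of the gene. In Sis they began at -134 on that strand and -138 on the opposite strand, and in Slc5a4a at -188 on the opposite strand. Of A+T rich letters reported for ARID3A, ATTAAA was in Sis and Mgam (12.7%) and ATCAAA in none of the 9 (10.6%). Such matches are letters in a window and no measure of binding.

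The libraries held between 27050455 and 31053622 expected counts. Arid3a was counted at 1.91, 2.07, 2.75, 2.68 and 2.69 CPM (counts scaled to a common library size) in WT replicates 1 to 5 and at 0.303, 0.516, 0.490, 0.884 and 1.17 CPM in cKO replicates 1 to 5. Every cKO value lay below every WT value, with a log2 fold change of -1.84 (standard error 0.32, edgeR adjusted p = 0.00204, n = 5 against 5). This count covers the whole gene and includes any reads from exons that Cre leaves in place. The WT animals were less alike than the cKO animals. Over the 1000 most variable genes the median Pearson correlation between libraries was 0.895 within WT and 0.953 within cKO, and average linkage joined WT replicates 1 and 2 with the 5 cKO libraries and set WT replicates 3, 4 and 5 apart. Over all 14719 tested genes the same procedure divided the libraries by genotype. Values without WT replicates 3, 4 and 5 are therefore given beside the result of each member, but not for genes of the other lists. Without WT replicates 3 and 4 the log2 fold changes of the members lay between 0.99 (Mgam) and 1.69 (Slc5a4a).

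All 9 genes were higher in Arid3a cKO crypts. Their fold changes ran from 2.23 (Mgam) to 4.80 (Slc5a4a), with a median log2 fold change of 1.92, while the median of all tested genes was -0.03. Of all tested genes, 28.3% passed the edgeR threshold and 15.6% passed it as higher in cKO, 2298 genes against 1869 lower. Scaled by library size only, 1541 genes were higher and 4030 lower, the median of all genes moved to -0.16, and the 9 members stayed higher. The genotypes did not overlap for 8 of the 9 genes, which held, in the direction of higher in cKO, for 12.0% of all tested genes (7.63% lay apart in the other direction). A log2 fold change at least as large as that of Mgam, the smallest among them, was found in 3.05% of tested genes. With WT replicates 3 and 4 left out, 7 of the 9 passed the threshold, all but Lct and Slc5a4a. When replicate 5 was left out as well, 4 did (Sis, Mgam, Slc2a2 and Slc2a5), and 683 genes in all passed. The RNA comes from whole crypt preparations, in which more cells of a type and more RNA per cell cannot be told apart.

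**Figure D1:**
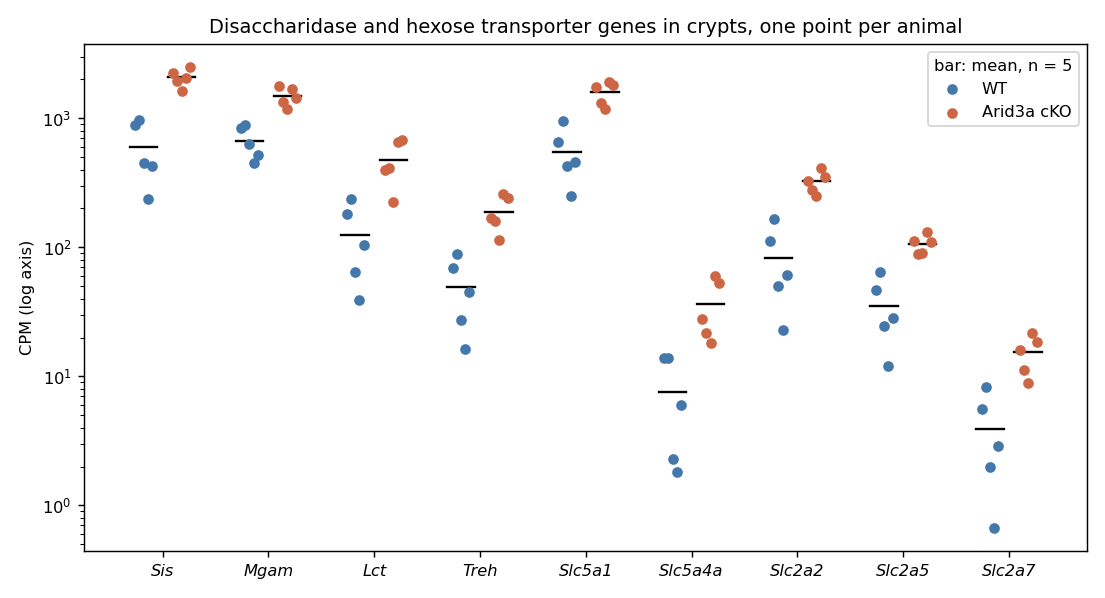
CPM (log axis) of the 9 genes in each of 5 WT (blue) and 5 Arid3a cKO (orange) animals, with the mean of each group as a bar. The groups lie apart for every gene but Lct, where the lowest cKO animal (224 CPM) lies below the highest WT animal (238 CPM), and the WT points spread more widely than the cKO points.

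Among the disaccharidases, Sis was the one with the most reads in cKO crypts. Sis (chromosome 3, 72888557 to 72967863, minus strand, GRCm38) was measured at 891, 970.2, 447, 237 and 429 CPM in WT replicates 1 to 5 and at 2252, 1947, 1634, 2052 and 2496 CPM in cKO replicates 1 to 5. The lowest cKO animal was above the highest WT animal, and the WT values formed a higher pair, replicates 1 and 2, and 3 lower values. The means were 595 ± 318 and 2076 ± 324 CPM (SD, n = 5 each), a 3.49-fold difference (log2 fold change 1.80, standard error 0.36, edgeR adjusted p = 0.00686). Against WT replicates 1 and 2 alone the log2 fold change was 1.15 (edgeR adjusted p = 0.0116).

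Mgam, whose enzyme trims the ends of starch fragments, changed by the smallest factor of the 9. Mgam (chromosome 6, 40628831 to 40769123, plus strand) stood at 838, 892, 633, 450.5 and 523 CPM in WT and at 1776, 1344, 1182, 1687 and 1446 CPM in cKO animals, in the same order of replicates. No values overlapped, and the means of 667 ± 193 and 1487 ± 244 CPM differed 2.23-fold (log2 fold change 1.16, standard error 0.19, edgeR adjusted p = 0.00210). Mgam also varied least among WT animals, the highest being 1.98 times the lowest. Against WT replicates 1 and 2 alone its log2 fold change was 0.78 (edgeR adjusted p = 0.0339).

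Lct, the lactase gene, was the member whose groups overlapped. Lct (chromosome 1, 128284756 to 128328318, minus strand) was measured at 181, 238, 64.0, 39.2 and 105 CPM in WT and at 396, 411, 224, 660.3 and 680.3 CPM in cKO animals. Only cKO replicate 3 and WT replicate 2 crossed. The means were 125 ± 82.8 and 474 ± 194 CPM (log2 fold change 1.92, standard error 0.52, edgeR adjusted p = 0.0245). Leaving out any of WT replicates 3 and 5 and cKO replicates 4 and 5 ended the call, with edgeR adjusted p between 0.0514 and 0.0610, as did the fits without WT replicates 3 and 4 (log2 fold change 1.44) or 3, 4 and 5 (1.18).

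Treh, the trehalase gene, was the least expressed disaccharidase by reads. Treh (chromosome 9, 44673233 to 44686305, plus strand) had 68.7, 89.5, 27.1, 16.3 and 44.7 CPM in WT and 169, 160.5, 114, 261 and 240.3 CPM in cKO animals. All cKO values were above all WT values. The means of 49.3 ± 30.0 and 189 ± 60.4 CPM gave a log2 fold change of 1.94 (standard error 0.46, edgeR adjusted p = 0.0141). Against WT replicates 1 and 2 alone it was 1.25 and did not pass (edgeR adjusted p = 0.0916).

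The SGLT1 gene was highly and its relative Slc5a4a weakly expressed, and both were higher in cKO crypts. Whether the product of Slc5a4a takes up sugar was not tested. Slc5a1, which encodes SGLT1 (chromosome 5, 33104219 to 33162870, plus strand), was at 652, 945, 430.2, 250.3 and 461 CPM in WT and at 1757, 1314, 1184, 1909 and 1817 CPM in cKO animals, without overlap. Its means were 548 ± 264 and 1596 ± 325 CPM (2.91-fold, log2 fold change 1.54, standard error 0.32, edgeR adjusted p = 0.00790). Against WT replicates 1 and 2 alone the log2 fold change was 1.00 and lay just outside the threshold (edgeR adjusted p = 0.0513).

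Slc5a4a, the relative of SGLT1 (chromosome 10, 76147451 to 76189265, plus strand), was at 13.8, 13.8, 2.31, 1.81 and 5.96 CPM in WT and at 27.8, 21.8, 18.1, 60.5 and 52.6 CPM in cKO animals. The groups did not overlap, and both held animals that differed several-fold, cKO replicates 4 and 5 being well above the other cKO animals. The log2 fold change of 2.26 had the largest standard error of the 9, 0.64 (edgeR adjusted p = 0.0277). Its call was lost when any of WT replicates 3 and 5 and cKO replicates 4 and 5 was taken out (edgeR adjusted p between 0.0544 and 0.0670), without WT replicates 3 and 4 (log2 fold change 1.69) and without WT replicates 3, 4 and 5 (1.39). Its neighbour and paralog Slc5a4b, which lies 36.5 kb away on the opposite strand, rose from 7.09 ± 4.80 to 35.3 ± 24.7 CPM (log2 fold change 2.32, edgeR adjusted p = 0.0284). No other gene was at least 95% identical over 100 bases or more to any of the 9 members.

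All 3 facilitative transporters rose. Slc2a2, the GLUT2 gene of the basolateral membrane (chromosome 3, 28697903 to 28731359, plus strand), was at 112, 165, 50.02, 23.0 and 61.3 CPM in WT and at 327, 277, 251.9, 411 and 353 CPM in cKO animals. The lowest cKO value stood clear of the highest WT value. The means were 82.4 ± 56.6 and 324 ± 62.9 CPM, a 3.93-fold difference (log2 fold change 1.98, standard error 0.47, edgeR adjusted p = 0.0146), and the log2 fold change was 1.22 without WT replicates 3, 4 and 5 (edgeR adjusted p = 0.0333).

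Slc2a5, the fructose transporter GLUT5, and Slc2a7 lie 4.8 kb apart in the same orientation on chromosome 4 (150119283 to 150144169 and 150148972 to 150168482). Slc2a5 was at 46.9, 64.7, 24.7, 12.0 and 28.1 CPM in WT and at 112, 89.2, 91.0, 132 and 109.6 CPM in cKO animals. It had the narrowest range of all 9 genes among cKO animals, the highest being 1.48 times the lowest, and a log2 fold change of 1.60 (standard error 0.39, edgeR adjusted p = 0.0164). Against WT replicates 1 and 2 alone its log2 fold change was 0.93 (edgeR adjusted p = 0.0364).

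Slc2a7 was the least expressed of the 9 and the one with the widest WT range. Its values were 5.57, 8.23, 2.002, 0.670 and 2.91 CPM in WT and 16.1, 11.3, 8.88, 21.8 and 18.6 CPM in cKO animals, from 20 to 641 counts per library. The groups lay apart by a small margin, 8.23 against 8.88 CPM. The log2 fold change was 1.99 (standard error 0.55, edgeR adjusted p = 0.0267). Leaving out any of WT replicates 3 and 5 and cKO replicates 1, 4 and 5 ended the call (edgeR adjusted p between 0.0542 and 0.0621), as did the fit without WT replicates 3, 4 and 5 (log2 fold change 1.15).

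Levels between genes were compared in the deposited TPM, a transcript abundance that is scaled by transcript length. In WT crypts Mgam (227 ± 71.0 TPM), Sis (194 ± 104) and Slc5a1 (175 ± 81.4) led, followed by Slc2a2 (41.1 ± 28.3), Treh (33.1 ± 19.9), Lct (26.6 ± 17.6) and Slc2a5 (20.4 ± 11.0), with Slc5a4a (4.92 ± 3.92) and Slc2a7 (3.52 ± 2.67) last. In cKO crypts Sis came first at 636 ± 77.7 TPM, before Mgam (488 ± 102) and Slc5a1 (483 ± 111), and the order of the other 6 was as in WT. Sis was above Mgam in 5 of 5 cKO animals, while Mgam was above Sis in 4 of 5 WT animals. The places of Mgam and Slc5a1 in cKO animals could not be told apart, Mgam being higher in 3 of 5. In WT animals Sis and Slc5a1, Lct and Slc2a5, and Slc5a4a and Slc2a7 kept their order in 4 of 5, as did Lct and Slc2a5 in cKO animals, and the SD of each of these pairs overlapped. The other neighbours kept their order in 5 of 5 animals of each genotype.

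Summed over the 9 genes, WT animals lay between 363 and 1185 TPM (median 565) and cKO animals between 1545 and 2460 TPM (median 2238). The 4 disaccharidases made up 251.9 to 757 TPM in WT and 1017 to 1527 TPM in cKO animals, and the 5 transporters 111 to 428 and 528 to 933 TPM. The largest share of the summed TPM passed from Mgam, 31.3% in WT and 23.7% in cKO, to Sis, 26.8% in WT and 30.9% in cKO.

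The members did not all rise by the same factor, which was tested on the ratio of 6 pairs of genes within each animal. The ratio of Mgam to Sis in CPM was 0.941, 0.920, 1.42, 1.89 and 1.22 in WT and 0.788, 0.690, 0.723, 0.822 and 0.579 in cKO animals. Every cKO animal was below every WT animal, a difference of -0.78 on the log2 scale (exact permutation test, two-sided, p = 0.00794, which is the lowest possible with 5 against 5 animals, adjusted p = 0.0159 over the 6 ratios). Sucrase-isomaltase transcripts thus rose by a larger factor than those of maltase-glucoamylase. WT replicates 1 and 2 had the WT ratios nearest to those of cKO animals.

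Transcripts for glucose export and entry also rose by unequal factors. The ratio of Slc2a2 to Slc5a1 was 0.173, 0.175, 0.117, 0.0938 and 0.134 in WT and 0.186, 0.211, 0.213, 0.215 and 0.195 in cKO animals. All cKO animals were above all WT animals, by 0.60 on the log2 scale (exact permutation p = 0.00794, adjusted p = 0.0159). Relative to Slc2a2, Slc2a5 was lower in cKO animals, the ratio being 0.420, 0.393, 0.499, 0.530 and 0.463 in WT and 0.344, 0.323, 0.363, 0.323 and 0.311 in cKO animals, a log2 difference of -0.46 without overlap (exact permutation p = 0.00794, adjusted p = 0.0159).

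The other ratios showed no such separation. Slc5a1 relative to Sis was lower in cKO animals by 0.32 on the log2 scale (exact permutation p = 0.0397, adjusted p = 0.0595). Lct relative to Sis ran from 0.144 to 0.246 in WT and from 0.137 to 0.322 in cKO animals (log2 difference 0.12, exact permutation p = 0.659, adjusted p = 0.659), and Treh relative to Sis from 0.0617 to 0.105 and from 0.0702 to 0.127 (log2 difference 0.14, exact permutation p = 0.532, adjusted p = 0.638). With WT replicates 3 and 4 left out the differences of the 3 separated ratios were -0.51 for Mgam to Sis, 0.35 for Slc2a2 to Slc5a1 and -0.35 for Slc2a5 to Slc2a2, and without WT replicates 3, 4 and 5 they were -0.38, 0.23 and -0.29. Their exact permutation p were then the smallest that so few animals allow, and the adjusted p were 0.0714 and 0.190.

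**Figure D2:**
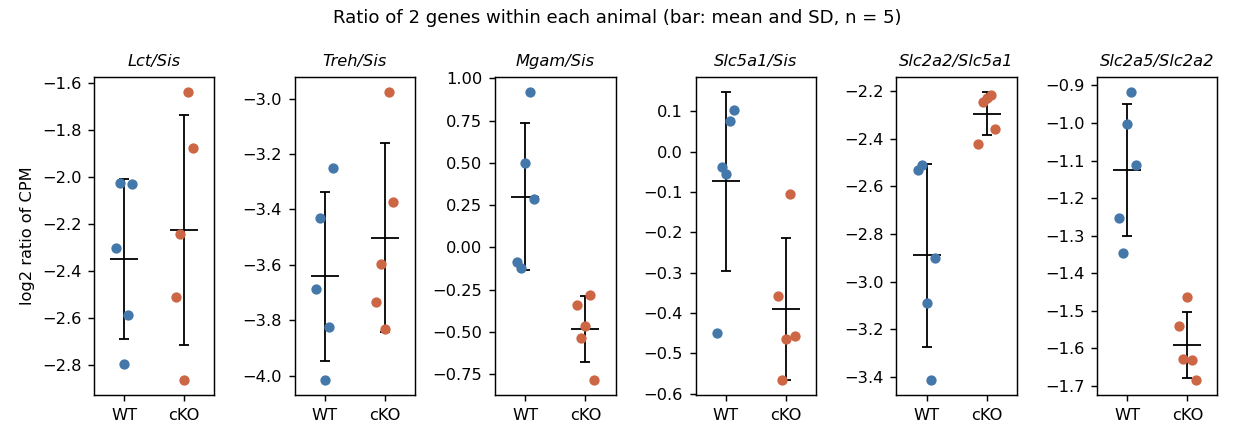
Log2 ratio of the CPM of 2 genes within each animal, for 6 pairs, in 5 WT (blue) and 5 Arid3a cKO (orange) animals, with mean and SD in black and a separate vertical scale for each pair. The groups lie apart for Mgam/Sis, Slc2a2/Slc5a1 and Slc2a5/Slc2a2 and overlap for Lct/Sis, Treh/Sis and Slc5a1/Sis.

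The spread among animals followed 1 pattern in all 9 genes. WT replicate 2 had the highest and WT replicate 4 the lowest WT value in 9 of 9 genes, an order that 10.9% of all tested genes showed. The ratio of the highest to the lowest animal was larger in WT than in cKO for 9 of 9 genes and for 69.2% of all tested genes. Among cKO animals, replicate 3 was the lowest for 8 genes and replicate 2 for Slc2a5.

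Markers of cell types moved along with these genes. The 10 enterocyte markers summed to 5207, 8168, 2969, 2073 and 4369 CPM in WT and to 12965, 12196, 9040.0, 15911 and 16689 CPM in cKO animals, with the highest and lowest WT and the lowest cKO animal being those found for most members. All 10 passed the threshold as higher, with a median log2 fold change of 1.53, among them Alpi, the intestinal alkaline phosphatase (1.83), Apoa4, an apolipoprotein of chylomicrons (2.06), and Fabp1, a fatty acid binding protein (1.55). The groups lay apart for 7 of the 10 and overlapped for the others, Fabp1 among them. Of 6 villus tip markers 4 were higher, and the sum of the 6 ran from 119 to 273 CPM in WT and from 344 to 754 CPM in cKO animals.

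Markers of stem cells, proliferation and Paneth cells went the other way, though not all of them passed the threshold. Of 5 stem cell markers 3 were lower and none was higher, with sums of 5178 to 8725 CPM in WT and 4224 to 6312 CPM in cKO animals, and 3 of 6 proliferation markers were lower (sums of 1556 to 1789 and 1212 to 1454 CPM). Of 5 Paneth cell markers 4 were lower (11456 to 17945 and 7764 to 10581 CPM). The 5 immune markers gave no call and the 5 stromal markers 2 lower ones, with sums of 56.7 to 127 and 34.9 to 143 CPM (immune) and of 9.85 to 44.9 and 5.31 to 87.0 CPM (stromal), the highest of both in cKO replicate 4. Goblet cell markers gave 1 lower call of 5, while 4 of the 5 had a positive log2 fold change. Their sums were 2301 to 2936 CPM in WT and 2839 to 3398 CPM in cKO animals. Enteroendocrine markers gave 2 higher of 5 (summed 398 to 481 and 517 to 746 CPM). Tuft cell markers gave 2 higher of 3 tested (53.9 to 60.9 and 64.1 to 71.9 CPM, summed over all 5 listed). No marker of these cell types was at 3 counts or fewer in every library. Markers of the proximal and of the distal small intestine, 5 each, gave 1 higher call and none (summed 358 to 421 and 372 to 598 CPM, and 44.2 to 117 and 55.5 to 166 CPM). The part that the makeup of the crypt preparations has in the values of the 9 genes was not tested.

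**Figure D3:**
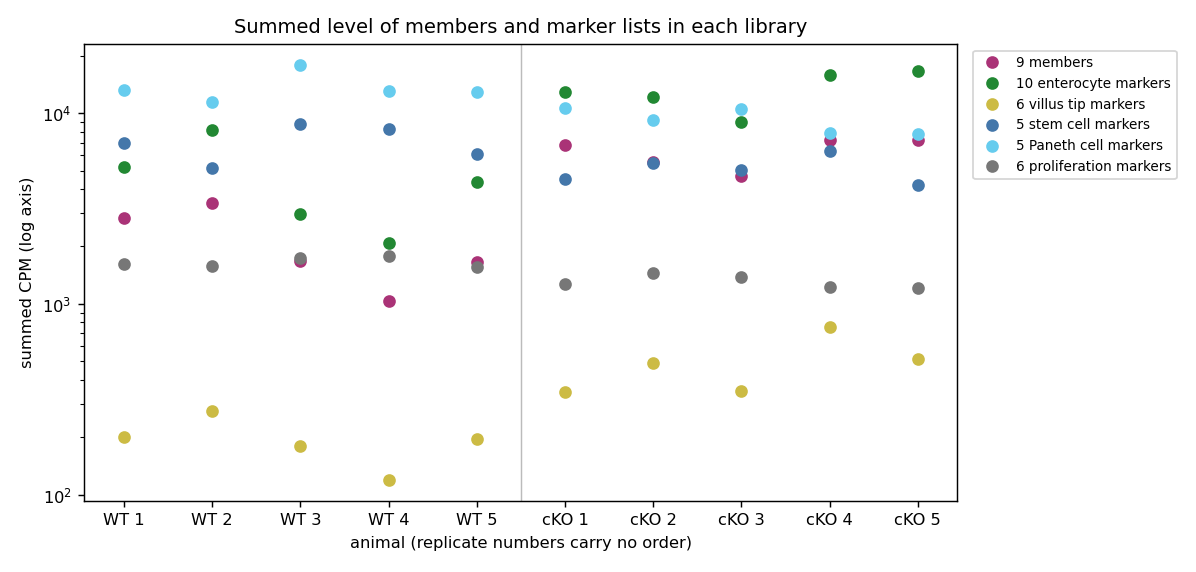
Summed CPM (log axis) of the 9 genes and of 5 marker lists in each library, WT on the left and Arid3a cKO on the right. The 9 genes (1031 to 3388 CPM in WT and 4708 to 7214 CPM in cKO) and the enterocyte markers are both highest in WT replicate 2 and lowest in WT replicate 4 among WT animals.

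Most other sugar transporters did not pass the threshold. Of 16 other members of the Slc2a, Slc5a and Slc50a families, 11 could be tested, 4 were higher and none lower, and the median log2 fold change was -0.20. The 4 were Slc5a4b, Slc5a11, an inositol transporter (13.6 ± 9.32 to 42.5 ± 11.8 CPM, log2 fold change 1.65, edgeR adjusted p = 0.0310), Slc2a9, a urate transporter (9.70 ± 4.66 to 22.003 ± 3.33 CPM, 1.18, edgeR adjusted p = 0.0143), and Slc5a9 (7.78 ± 0.396 to 15.1 ± 3.56 CPM, 0.95, edgeR adjusted p = 0.00147). Of these, Slc5a11 overlapped between the groups, with 27.7 CPM in the highest WT and 27.2 CPM in the lowest cKO animal. Slc2a1, the widely expressed glucose transporter GLUT1, stood at 14.7 ± 1.85 and 12.6 ± 1.68 CPM (log2 fold change -0.22, edgeR adjusted p = 0.178).

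Enzymes that take hexoses into metabolism were in part higher. Of 12 listed, 11 were tested, 5 were higher and 1 lower, with a median log2 fold change of 0.43. Khk, the ketohexokinase that phosphorylates fructose, rose from 112 ± 43.4 to 218 ± 21.5 CPM (log2 fold change 0.96, edgeR adjusted p = 0.0117). Tkfc, the triokinase of the same route, rose by 0.68 on the log2 scale, as did Galm, which interconverts the anomers of galactose, and Hkdc1, a hexokinase relative, by 1.09. Hk2, the inducible hexokinase, was the 1 that fell, from 60.1 ± 12.3 to 41.8 ± 4.49 CPM (-0.52, edgeR adjusted p = 0.0115; named after its value was seen). The Hk2 groups overlapped, with 46.1 CPM in the lowest WT and 47.1 CPM in the highest cKO animal. Galk1 and Galt, enzymes of the galactose pathway, did not pass. Galk1 lay just outside the threshold (log2 fold change -0.21, edgeR adjusted p = 0.0502), and Galt had a log2 fold change of 0.15 (edgeR adjusted p = 0.290).

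Of 9 genes for sugar sensing and transporter trafficking, 7 were tested and 2 were higher, with a median log2 fold change of 0.26. Sgk1, a kinase that regulates membrane transporters, rose from 11.9 ± 4.75 to 59.8 ± 22.9 CPM (log2 fold change 2.33, edgeR adjusted p = 0.00226), and Pdzk1, a scaffold of the brush border, from 25.7 ± 20.03 to 93.6 ± 32.2 CPM (1.86, edgeR adjusted p = 0.0350). The groups overlapped for Pdzk1, with 56.4 CPM in the highest WT and 51.1 CPM in the lowest cKO animal. Mlxipl, the glucose-responsive factor ChREBP, stood at 140 ± 6.47 and 130.1 ± 6.91 CPM (edgeR adjusted p = 0.217).

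Of 12 listed transcription factors, among them those of the HNF1, HNF4, CDX and GATA families, 2 were higher and none lower. The median log2 fold change was 0.04. Whether any of the 12 acts at the promoters above was not tested, and no letters for Pdx1, Onecut2 or Isx were sought there. Hnf4g rose from 99.4 ± 17.2 to 206 ± 40.4 CPM (log2 fold change 1.05, edgeR adjusted p = 9.26e-04) and Gata6 from 78.6 ± 6.28 to 97.4 ± 5.23 CPM (0.31, edgeR adjusted p = 0.00722). Hnf4a (1151 ± 68.2 and 1040 ± 44.3 CPM), Cdx2 (173 ± 14.6 and 165 ± 17.98 CPM) and Gata4 (188 ± 10.9 and 189 ± 7.72 CPM) did not pass the threshold.

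**Figure D4:**
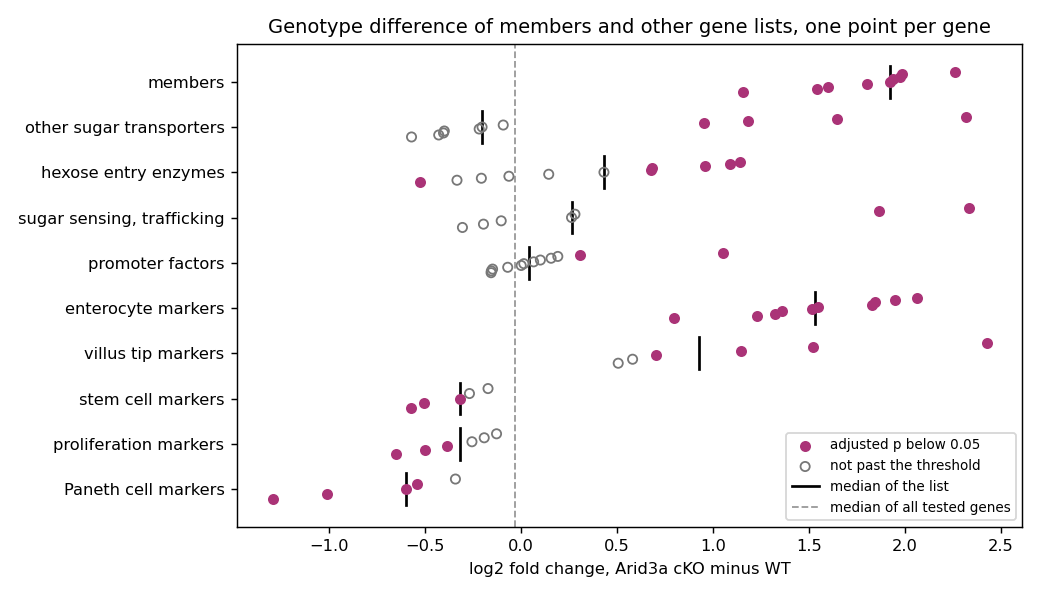
Log2 fold change between Arid3a cKO and WT crypts for each tested gene of the 9 members and of 9 other lists, filled where the edgeR adjusted p was below 0.05, with the median of each list as a black bar and the median of all tested genes (-0.03) as a dashed line. Members lie between 1.16 and 2.26, alongside the enterocyte markers, while most other sugar transporters and promoter factors lie near 0 or below.

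The deposited files also give the mean length of each gene's transcripts, weighted by their estimated abundance, so that a shift among isoforms changes it. Of 8 members above 1 TPM in every library, 2 had a single length and 6 were compared. For Slc2a5 the length was 2304, 2384, 2338, 1983 and 2315 bases in WT and 2676, 2653, 2477, 2437 and 2399 bases in cKO animals. Every cKO value exceeded every WT value, by 263 bases on average (exact permutation p = 0.00794, adjusted p = 0.0476 over the 6 lengths). A longer length without overlap was found in 3.39% of 9666 genes compared in the same way, and a shorter one in 1.00%. For Slc2a2 the mean difference was 151 bases (exact permutation p = 0.0794), for Lct -167 (exact permutation p = 0.206), for Mgam -122 (exact permutation p = 0.389), for Sis -26.7 (exact permutation p = 0.905) and for Treh 2.96 (exact permutation p = 0.865). These lengths are estimates of RSEM from short reads, and no isoform was counted directly.

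Genes with the pattern most like that of a member were sought among 9196 other genes of at least 10 CPM, by the root mean square difference of log2 CPM, taken relative to the WT mean, over the 10 libraries. Nearest to Sis were Slc6a20a, an amino acid transporter (0.18), Sema6a (0.19) and H2-Q1 (0.22). Nearest to Mgam were Pls1, an actin bundling protein of microvilli (0.11), Iqgap2 (0.12) and Lpgat1 (0.13), and Mgam stood 0.41 from its nearest fellow member, Slc5a1. Lct and Treh were near to each other (0.14), Lct being nearest to the peptidase gene Ace (0.13), Pdzk1 (0.15) and Bst1 (0.15), and Treh having Cyp3a25 (0.13) and Gm11127 (0.14) among its nearest genes.

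Among the transporters, Slc5a1 was nearest to Cyp4f14 (0.11), Clic5, a microvillar protein (0.11), and the aminotransferase gene Gpt (0.11), and Slc2a2 to Gda (0.15), Cyp3a25 (0.15) and 2010106E10Rik (0.17). Slc2a5 was nearest to Synpo (0.16), Xdh, the xanthine dehydrogenase (0.17), and Clic5 (0.17). Slc5a4a had the most distant neighbours, Unc93a2 (0.29), Cyp2b10 (0.30) and the peptide transporter gene Slc15a1 (0.33). Slc2a7 was below the minimum level for this search.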

How the data were processed

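Crypts were released with EDTA after the villi had been scraped off, and libraries were made from polyadenylated RNA. Per the study's methods, the authors ran nf-core/rnaseq with STAR as aligner and RSEM as quantifier, using Ensembl gene models on GRCm38. The strand setting is not given in the sources used here. For each library they deposited expected counts per gene, without normalization between libraries, TPM scaled to transcript length and library, and the abundance-weighted length of each gene. RSEM shares reads that match several genes among them.

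Ensembl gene identifiers were matched to symbols (54723 of 54838), and the other 115 held at most 0.021% of counts. Expected counts were rounded and tested with edgeR 4.0.16 (R 4.3.3, filterByExpr with a minimum count of 10, TMM, robust quasi-likelihood test, Benjamini-Hochberg adjustment over 14719 genes, threshold 0.05). CPM use TMM library sizes, and errors are SD over 5 animals. Ratios (log2 of CPM + 0.5) and lengths were tested by exact permutation of the genotype labels, two-sided, and adjusted over 6 ratios or 6 lengths. Totals were 27050455 to 31053622 counts per library, and members rest on 20 (Slc2a7) to 66841 (Sis) counts per library.

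The members and lists were chosen with earlier results of these data known. Named genes were all 9 members, Arid3a, up to 5 called genes of each pathway list with the largest change, and the 3 genes most like each member. The listed genes that did not pass and are named (Slc2a1, Galk1, Galt, Mlxipl, Hnf4a, Cdx2 and Gata4) were chosen after their values were seen. A few genes within this rule are counted but not reported by name. Promoter sequences are from RefSeq (GRCm38.p6), found for 9 of 9 members. Alternatives were DESeq2 1.42.0 and limma 3.58.1 (voom, log2(TPM + 1) with and without a minimum mean of 1 TPM, and log2(TPM + 0.1) with that minimum). Further ones were RLE factors, library size only, other filters, an effective length offset, the replicate number as a block, and leaving out animals. Leaving out WT replicates 3, 4 and 5 together was chosen after seeing the data. The fits were tested on simulated data. No 2 libraries of the same genotype agreed within sampling noise.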

Additional observations from a re-analysis of the deposited data

Results flagged for a closer look

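A single animal stood apart from the other 4 of its group in 2 of 32 groups of 5 examined by Dixon's criterion. Some such flags arise by chance. The groups share animals, so the rate of 1 in 20 for a single group cannot be applied to their count. The mean transcript length of Lct was 6010 bases in WT replicate 2 and 6174 bases in the other 4 WT animals. As those 4 were equal, any other value would have been flagged. That of Slc2a5 was 1983 bases in WT replicate 4, the WT animal with the fewest Slc2a5 reads, and between 2304 and 2384 bases in the others. Without this animal the mean Slc2a5 difference between cKO and WT was 193 bases in place of 263.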

How the results depend on the processing

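The log2 fold changes of all 9 members stayed positive in each of 23 alternatives. Sis, Mgam and Slc2a2 passed the threshold in all 23, with values of 1.15 to 2.05, 0.78 to 1.28 and 1.22 to 2.40. Over all tools their highest adjusted p-values were 0.0206 (Sis), 0.0339 (Mgam) and 0.0498 (Slc2a2). Slc5a1 and Slc2a5 failed in 1 alternative each (0.0513 and 0.0562), Treh in 2 (up to 0.0916), and Lct, Slc5a4a and Slc2a7 in 8 each (up to 0.197, 0.223 and 0.131). Without a filter on low counts 27960 genes were tested and Lct, Slc5a4a and Slc2a7 failed (edgeR adjusted p of 0.0629, 0.0688 and 0.0709). Leaving out 1 animal gave 6 to 9 members called and 3007 to 4684 genes called.

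Without WT replicates 3 and 4, 2143 genes were called. Without WT replicates 3, 4 and 5, 683 genes and 4 members were called, and the log2 fold change of Arid3a was -1.57 (edgeR adjusted p = 0.0735). With 2 or 3 WT animals fewer genes can pass. Arid3a passed in its other 19 alternatives, and could not be tested where each sample needed 10 counts or the mean 1 TPM.

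Scaling moved the balance of calls over all genes, from 2298 higher and 1869 lower with TMM to 1541 and 4030 with library size only. With limma on log2(TPM + 1), which also changes the tool and the filter (12617 genes tested), 1392 were higher and 2741 lower. All 9 members were called in each of these fits. DESeq2 called 4758 genes and all 9 members.

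The replicate number as a block left 3052 genes and 4 members called. Samples with the same number did not deviate together (correlations of -0.16 to 0.13 over the 5 numbers, 0 of 10 libraries most like their own number). What such samples share beyond their number cannot be told from these correlations.

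The ratios Mgam/Sis, Slc2a2/Slc5a1 and Slc2a5/Slc2a2 passed with any 1 animal left out. Without WT replicates 3 and 4 they were -0.51, 0.35 and -0.35, and without replicate 5 as well -0.38, 0.23 and -0.29. The differences were smaller, and their exact permutation p, the smallest possible in each case, gave adjusted p of 0.0714 and 0.190. Slc5a1/Sis ranged from -0.41 (without WT replicate 1, adjusted exact permutation p = 0.0238) to -0.27 with 1 animal left out and passed also without cKO replicate 1 (-0.33) or 4 (-0.39), and it was -0.26 without WT replicates 3 and 4 and -0.15 without replicate 5 as well, neither past the threshold. Lct/Sis was -0.0255 without cKO replicate 4, -0.107 without WT replicates 3 and 4, -0.0630 without replicate 5 as well and up to 0.282 (without cKO replicate 3), and Treh/Sis was -0.0468 without WT replicates 3 and 4. The cause was not tested.

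The longer Slc2a5 transcript length kept its sign, from 193 to 296 bases with 1 animal left out and 194 without WT replicates 3 and 4, with exact permutation p at the smallest possible and adjusted p of 0.0952 and 0.214. The length differences of Sis (-121 to 56.8 with 1 animal left out, 80.3 without WT replicates 3 and 4) and Treh (-7.03 to 13.4) changed sign, as did that of Mgam without WT replicates 3 and 4 (50.9).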
